A study of Mus musculus with 3 samples.

Results

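The 1516 genomic regions described here carried an ATAC-seq peak summit in mouse mesenchymal stem cells before injury (day 0) and in the non-immobilized cells 7 days after injury, but none in the immobilized cells 7 days after injury. They were chosen from the deposited summit lists of the 3 libraries: every summit on chromosomes 1 to 19 was widened by 250 bp on each side, overlapping windows were merged, and a merged region was a member if it held at least 1 day 0 summit, at least 1 non-immobilized summit and no summit of the whole immobilized list. Of 78994 merged regions, 1516 (1.92%) met the rule. The rule used presence in all 3 lists, so the scores, ranks and distances between summits given below describe the members and test nothing.

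The study concerned heterotopic ossification, the formation of bone in soft tissue after injury, and compared the chromatin of mesenchymal stem cells with and without immobilization. The labels name 3 groups of 1 library each: cells at day 0 before injury, cells at day 7 after injury with immobilization, and cells at day 7 after injury without it. Mouse strain, age, injury, means of immobilization and the way the cells were obtained are stated in none of the sources used here. With 1 library per group no difference has a replicate check, no p-value is given, and differences between groups cannot be told apart from differences between libraries. Intervals are exact (Clopper-Pearson) 95% binomial intervals and cover counting error only.

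ATAC-seq marks open chromatin, where a transposase can reach the DNA and insert sequencing adapters. Open regions at transcription start sites are shared by most cell types, whereas open regions far from starts, many of them enhancers, differ more between cell types and states. Mesenchymal progenitors in injured limbs can take bone, cartilage, fat or tendon fates, and movement and tension act on them through the matrix, focal adhesions and the YAP/TAZ co-activators.

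The libraries held 143818952 to 176119937 read pairs, 42.0% to 60.2% of them duplicates. The lists held 51722 summits at day 0, 67404 for immobilized cells and 47912 for non-immobilized cells. The immobilized list, from which members had to be absent, was thus the longest. A region without a summit of a library may still have been open there, below the authors' threshold. Of 24 mesenchymal progenitor genes, 20, 22 and 18 had a region within 1 kb of a gene end at day 0, in immobilized and in non-immobilized cells. Markers of other cell types were also present: 7, 13 and 15 of 17 endothelial genes, 5, 15 and 8 of 16 keratinocyte genes, and 15, 13 and 14 of 19 skeletal muscle genes, in the same order. Krt5 and Krt14, keratins of basal keratinocytes, had such a region in the immobilized list alone, and Pecam1, an endothelial adhesion molecule, in the non-immobilized list alone. Other genes of the same lists went other ways: Trp63, of the keratinocyte list, had one at day 0 alone, and the endothelial gene Sox17 in the immobilized list alone. In bulk cells, a different share of cells of a type and a different opening per cell cannot be told apart.

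The sequences of 6 members at transcription starts are given as examples. They do not show the range of the set, since most members lay over 1 kb from a gene end. Each is the 250 bases before a RefSeq start (build GRCm38.p6, the assembly of mm10), printed 5′ to 3′ on the gene's strand. Capitals mark the stretch from the day 0 summit to the non-immobilized summit with 5 bases on either side, as far as the 250 bases reach. Ubqln4, Neurl4 and Ktn1 had both summits in the 250 bases before their starts and ranked better in both lists than Sumo2 and Pdcd7. The first 4 sequences are thus well-ranked examples with both summits in these bases, and not the 4 best. They are the starts of Sp4, a zinc-finger factor that binds GC-rich promoters (chr12:118301441-118301690, minus strand), Fem1a, a substrate receptor of a ubiquitin ligase (chr17:56256543-56256792, plus strand), Sumo2, a small ubiquitin-like modifier (chr11:115536231-115536480, minus strand), and Pdcd7, a component of the minor spliceosome (chr9:65345818-65346067, plus strand).
Sp4: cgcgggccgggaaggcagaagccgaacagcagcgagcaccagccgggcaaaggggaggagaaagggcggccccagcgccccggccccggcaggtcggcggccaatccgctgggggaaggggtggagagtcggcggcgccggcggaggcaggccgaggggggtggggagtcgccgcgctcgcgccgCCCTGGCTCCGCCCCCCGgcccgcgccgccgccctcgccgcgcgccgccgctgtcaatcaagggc
Fem1a: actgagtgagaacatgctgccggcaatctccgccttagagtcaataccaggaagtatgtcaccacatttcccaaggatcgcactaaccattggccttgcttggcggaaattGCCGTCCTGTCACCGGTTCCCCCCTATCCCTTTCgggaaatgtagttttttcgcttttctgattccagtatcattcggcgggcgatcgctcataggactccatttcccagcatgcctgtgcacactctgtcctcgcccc
Sumo2: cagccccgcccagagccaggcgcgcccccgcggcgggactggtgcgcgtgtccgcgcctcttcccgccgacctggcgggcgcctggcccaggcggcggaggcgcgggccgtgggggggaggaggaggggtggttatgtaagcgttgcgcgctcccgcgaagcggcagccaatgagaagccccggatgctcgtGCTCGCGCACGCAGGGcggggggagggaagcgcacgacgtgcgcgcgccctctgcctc
Pdcd7: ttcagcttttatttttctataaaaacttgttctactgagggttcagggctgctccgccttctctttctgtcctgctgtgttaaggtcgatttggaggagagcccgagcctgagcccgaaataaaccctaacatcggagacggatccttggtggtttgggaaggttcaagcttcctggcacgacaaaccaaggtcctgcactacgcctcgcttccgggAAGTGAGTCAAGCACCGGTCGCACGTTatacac
The other pair, chosen after their values were seen, had no immobilized summit within 5 kb. They are the starts of Ctsk, cathepsin K, the collagen-degrading protease of bone-resorbing cells (chr3:95498960-95499209, plus strand), and Zfp660, a zinc-finger gene (chr9:122902998-122903247, plus strand).
Ctsk: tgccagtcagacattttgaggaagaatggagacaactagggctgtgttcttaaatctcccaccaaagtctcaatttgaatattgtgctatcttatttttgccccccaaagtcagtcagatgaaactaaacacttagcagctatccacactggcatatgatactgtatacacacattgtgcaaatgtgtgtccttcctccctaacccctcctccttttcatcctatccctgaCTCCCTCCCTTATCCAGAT
Zfp660: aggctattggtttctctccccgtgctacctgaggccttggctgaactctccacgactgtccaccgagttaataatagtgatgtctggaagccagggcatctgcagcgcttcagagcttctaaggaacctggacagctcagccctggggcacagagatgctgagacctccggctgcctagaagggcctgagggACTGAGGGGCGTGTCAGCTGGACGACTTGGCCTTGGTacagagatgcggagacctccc
The Sp4 bases were 80% G or C with 37 CpG dinucleotides, and the Sumo2 bases 77.2% with 37. The Ctsk bases were 43.2% G or C with 0 CpG. Sp4 held 4 matches to the SP/KLF letters GGGCGG on either strand, Sumo2 held 2, and Fem1a, Pdcd7, Ctsk and Zfp660 held 0. Pdcd7 held 1 match to the AP-1 letters TGANTCA.

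At the start of Sp4 the day 0 summit lay at -53 bp with a score of 77.4, and the non-immobilized summit at -60 bp with a score of 66.0. The score is the authors' own value for a peak, read as a −log10 p or q value, and is used here only within a list. The nearest immobilized summit lay at -664 bp and scored 83.2. Each of these summits was among the best of its own list, at ranks of 3.65%, 4.05% and 2.67% (0% being the best score), and Sp4 was a member because the immobilized summit stood 604 bp away from the others. The same layout held at Fem1a, with summits at -134 and -111 bp (scores 72.4 and 61.6) and an immobilized summit at -718 bp (score 65.4). At Sumo2 the immobilized summit was downstream: the summits at -53 and -48 bp scored 50.6 and 45.7, and the immobilized summit at 478 bp scored 51.0. At Pdcd7 the summits at -28 and -12 bp scored 41.0 and 30.5, and the immobilized summit at 672 bp scored 37.4. Ctsk differed: its summits at -4 and -14 bp scored 11.0 and 8.53, and the nearest immobilized summit was 12766 bp away with a score of 8.12. At Zfp660 the summits at -53 and -27 bp scored 7.86 and 6.70, and the nearest immobilized summit was 16292 bp away.

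These starts show 2 kinds of member: some had an immobilized summit close by and some had none within 5 kb. Neither stands for the members in between, and the members are named here by the rule and not as sites lost with immobilization. For 498 of the 1516 members (32.8%, 30.5 to 35.3) an immobilized summit lay within 1 kb, for 452 (29.8%, 27.5 to 32.2) it lay 1 to 5 kb away, and for 566 (37.3%, 34.9 to 39.8) over 5 kb away. The median distance was 2345 bp and the shortest 501 bp, the least the rule allows. Of the 498 near members, the immobilized summit fell in a region of all 3 lists for 296, so that a shared peak lay beside the member, and in a region of the immobilized list alone for 101 (20.3%).

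The best-ranked members were of the near kind. In 44 members (2.90%) both summits ranked better than 25%; an immobilized summit lay within 1 kb of 40 of them, 1 to 5 kb from 4 and over 5 kb from 0. For 29 of the 40 (72.5%) that immobilized summit formed a region of its own, with no day 0 or non-immobilized summit. The immobilized summits beside the 40 had a median score of 48.2 and a median rank of 10.7% in their list. Among the 984 members with a rank of 75% or worse in either list, 241 had an immobilized summit within 1 kb and 429 had none within 5 kb.

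**Figure D1:**
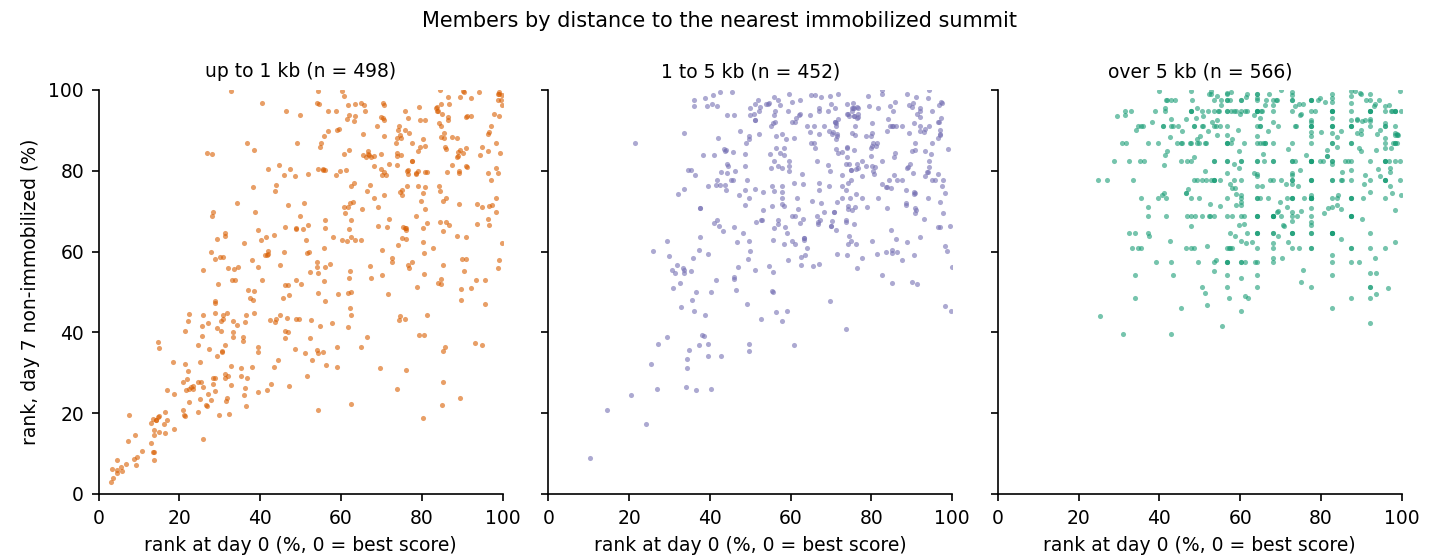
Rank of each member's best summit in the day 0 list (x axis, %) against its rank in the non-immobilized list (y axis, %), where 0 is the best score, with 1 point per member and 1 panel per distance to the nearest immobilized summit (498, 452 and 566 members). The points below 25% on both axes are nearly all in the panel up to 1 kb, and the panel over 5 kb has none there.

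The 15 best-ranked members scored 43.9 to 81.3 at day 0 and 41.2 to 70.8 in non-immobilized cells. Their nearest immobilized summits were 526 to 1036 bp away and scored 42.6 to 83.2. Of the 15, 13 lay within 1 kb of a gene end, and at 13 the immobilized summit formed a region of its own. They included the starts of Srsf2, a splicing factor, Eif5b, a translation initiation factor, Ubqln4, a shuttle to the proteasome, Spag9, a scaffold of JNK signalling, and Ktn1, a kinesin anchor. They also included Foxo3, a stress-responsive transcription factor, and Chd9, a chromatin remodeller.

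At Smad6, which encodes an inhibitor of BMP signalling, the order was turned round. The day 0 and non-immobilized summits lay upstream, at -951 and -972 bp, with scores of 43.9 and 41.2. The immobilized summit lay at the start itself, at -25 bp, with a score of 42.6. At Ddr1, a collagen receptor kinase, the day 0 and non-immobilized summits were at -53 and -38 bp of a listed start with scores of 39.4 and 35.9, and the immobilized summit was at 466 bp with a score of 30.2. Over the 251 members within 1 kb of a listed start, 176 had an immobilized summit within 1 kb, which lay further downstream than the day 0 summit in 71 of them (40.3%, 33.0 to 48.0). The nearest immobilized summit thus lay on either side of the day 0 summit along the genes. It need not be a displaced one. Among all members with an immobilized summit within 1 kb, it fell in a region of all 3 lists for 296 of 498, beside a shared peak.

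**Figure D2:**
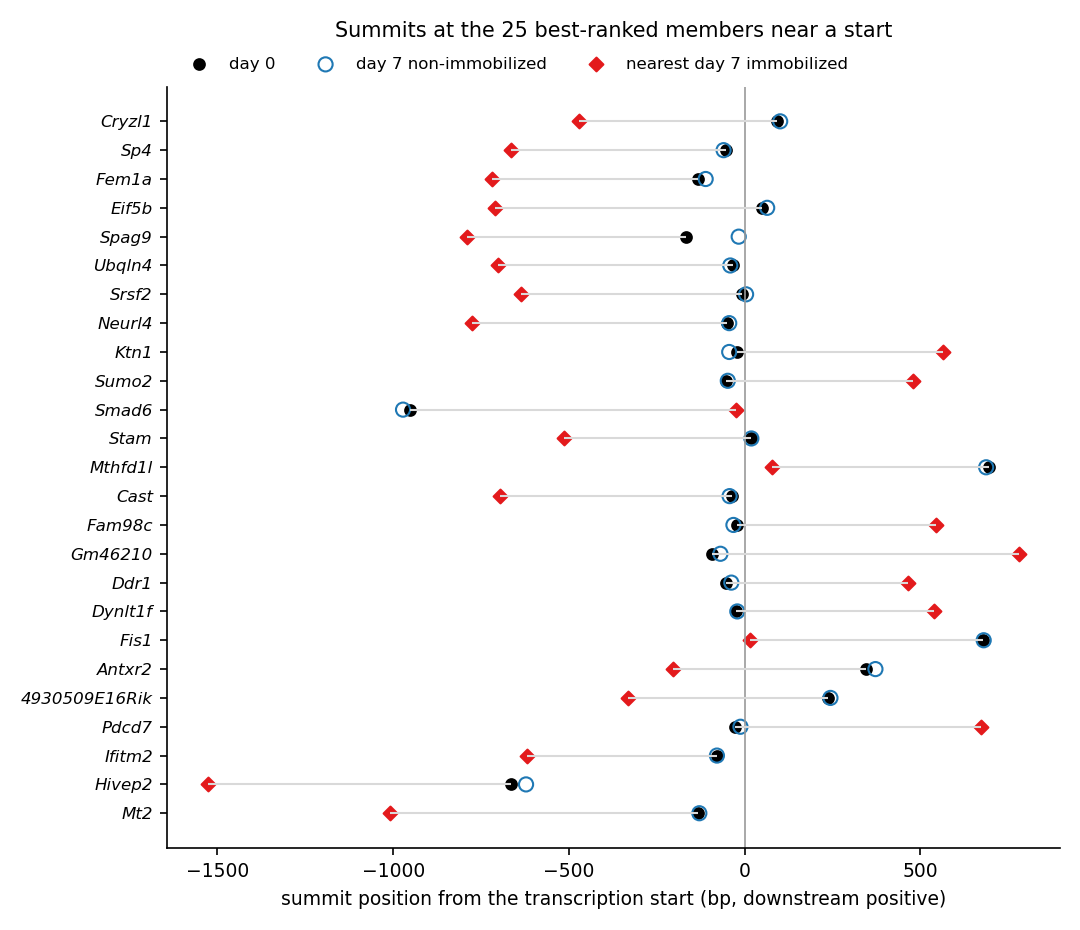
Positions of the day 0 summit (black), the non-immobilized summit (open blue) and the nearest immobilized summit (red) relative to the transcription start (x axis, bp, downstream positive) at the 25 best-ranked members near a start. The day 0 and non-immobilized summits sit together, as at Sp4 (-53 and -60 bp), and the immobilized summit stands apart (-664 bp).

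The rule sets its limit at 500 bp between summits. The 148 members whose nearest immobilized summit was within 600 bp had median scores of 10.3 at day 0 and 9.05 in non-immobilized cells. The 76 regions of all 3 lists just outside the rule, whose nearest immobilized summit was over 400 and up to 500 bp away, had median scores of 23.3 and 17.9. Of these groups, 34.5% and 34.2% lay within 1 kb of a gene end.

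Most members were weak peaks in both lists that held them. The day 0 scores ran from 1.88 to 81.3 with a median of 7.78, and the non-immobilized scores from 1.33 to 70.8 with a median of 5.63. The median rank was 65.0% at day 0 and 76.7% in non-immobilized cells. In 1043 members (68.8%) both ranks were worse than 50%, and in 170 (11.2%) both were better. The best day 0 and non-immobilized summits of a member were a median of 37 bp apart, within 100 bp in 1150 members (75.9%), and on the same base in 25. In regions of all 3 lists the median distance between them was 25 bp. The rule itself favours such closeness, since both summits had to fall in the same merged region.

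The members over 5 kb from an immobilized summit were the weakest and the most alike in score. Their median ranks were 68.2% and 82.5%. Their 566 day 0 summits took 276 distinct scores, and 293 of them (51.8%) shared a score with at least 100 summits of the list, against 5.42% of the members within 1 kb and 10.7% of the regions of all 3 lists. In the non-immobilized list the shares were 64.0%, 8.23% and 14.0%. Score values thus recurred most among the far members of these sets. No set of equal rank was compared, so low score and distance cannot be told apart here.

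The 15 best-ranked of these far members included regions far from genes and regions near a gene end. The first, chr1:177188690-177189202, lay inside a protein-coding gene, 72829 bp from the nearest gene end. It scored 19.1 at day 0 and 13.2 in non-immobilized cells, and the nearest immobilized summit was 69592 bp away. A region inside Nek10, a kinase gene, scored 13.2 and 13.2 with the nearest immobilized summit 68129 bp away (chr14:14985222-14985738). A region 39602 bp from Hunk, a kinase gene with 3 members all over 5 kb from immobilized summits, scored 23.9 and 11.8 (chr16:90538897-90539407). A region 28693 bp from Pik3cg, a phosphoinositide kinase of leukocytes, scored 13.1 and 9.17 and was 35206 bp from the nearest immobilized summit. One near Elf3, an epithelial ETS factor, scored 17.4 and 9.17 at 9851 bp. Nearer to genes, the member at Churc1 was 1192 bp from a gene end and scored 17.4 and 10.5, and the one at Vipr2, a neuropeptide receptor gene, was 1465 bp away and scored 10.04 and 9.01. At H2-T-ps, in the MHC region with its near-identical gene copies, a member 29 bp from a gene end scored 9.29 and 10.5. These genes were chosen by the strength of the far members after their values were seen.

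A day 0 region was less often a member than its mirror image, a region found at day 0 and in immobilized cells but not in non-immobilized cells, when the lists were used as deposited. Of 49816 day 0 regions, 1516 (3.04%, 2.89 to 3.20) were members and 6952 (14.0%, 13.7 to 14.3) were mirror regions, while 65.9% were in all 3 lists. Of the 34329 regions called at day 0 and in non-immobilized cells, the members were 4.42%, and of the 45961 regions of the non-immobilized list they were 3.3%. With each list reduced to the 47912 best scores, the shares were 7.41% (7.17 to 7.65) and 7.73% (7.49 to 7.97). At equal length the intervals of the shares overlapped. Of the 3447 members at equal length, 2073 (60.1%) held an immobilized summit in the deposited list. Of the 1516 deposited members, 1374 (90.6%) were also members at equal length, and the other 142 had a non-immobilized summit alone there, without one among the best day 0 scores.

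Among the strongest day 0 regions the shares of members and mirror regions were close in the deposited lists too, on few regions. Of 5170 day 0 regions ranked better than 10%, 15 (0.290%) were members and 14 (0.271%) were mirror regions as deposited. Between ranks of 60% and 70%, the shares were 4.52% (3.96 to 5.13) and 24.9% (23.7 to 26.1) as deposited and 12.7% (11.8 to 13.7) and 14.6% (13.6 to 15.6) at equal length. The order at equal length changed with rank. Between 50% and 60% the shares were 10.1% (9.22 to 11.0) for members and 13.1% (12.2 to 14.1) for mirror regions. From 90% on they were 12.2% (11.2 to 13.2) and 9.74% (8.87 to 10.7).

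**Figure D3:**
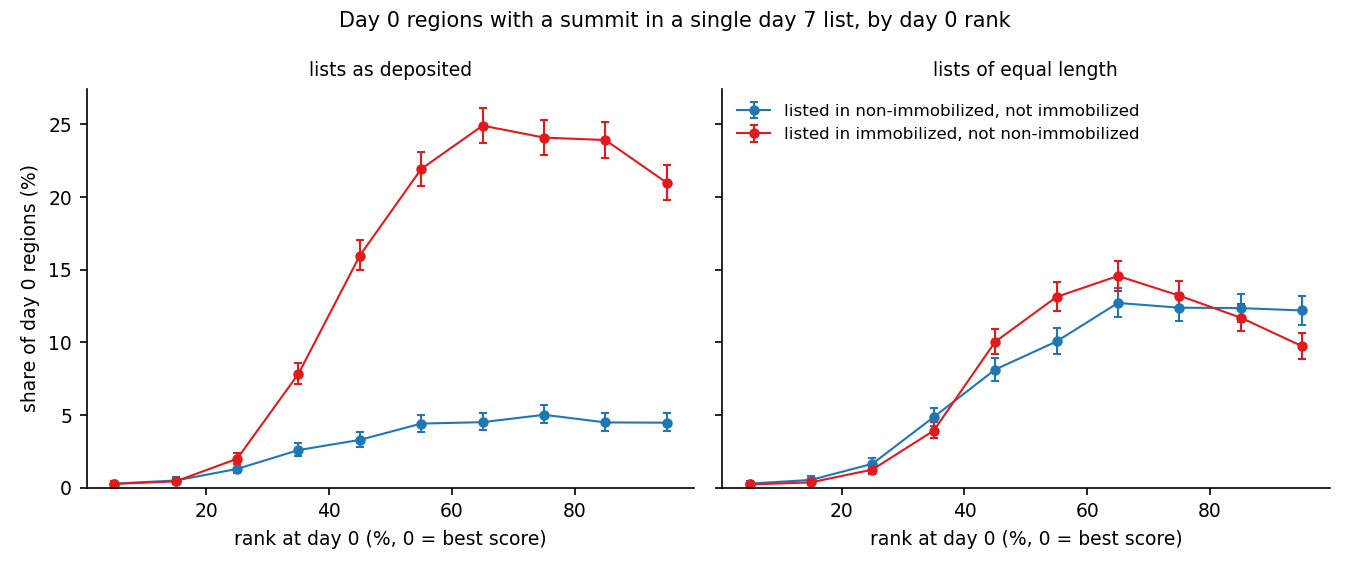
Share of day 0 regions (y axis, %) that had a summit in the non-immobilized list alone of the day 7 lists (blue) or in the immobilized list alone (red), by rank at day 0 in steps of 10% (x axis, 0 is the best score), with lists as deposited (left) and of equal length (right); bars are exact 95% intervals. As deposited the red points rise to 24.9% and the blue ones from 0.290% to at most 5.02%, and at equal length both reach 12% to 15%.

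A summit within 1 kb of a protein-coding gene's end was found for 16.3% of members (14.5 to 18.2), 33.2% of regions of all 3 lists and 7.78% (7.16 to 8.44) of mirror regions. With lists of equal length it was found for 12.5% of members (11.4 to 13.7) and 8.26% of mirror regions (7.38 to 9.21). Members were 1.68% of the regions near gene ends. By distance to the immobilized summit, 33.9% (29.8 to 38.3) of members up to 1 kb, 8.63% (6.21 to 11.6) of those at 1 to 5 kb and 6.89% (4.95 to 9.30) of those over 5 kb were near a gene end. In the mirror regions, sorted by distance to the nearest non-immobilized summit, the shares were 25.95%, 6.94% and 5.29%. Only 10.2% of mirror regions had such a summit within 1 kb, against 32.8% of members, so the composition by distance differed along with the overall share, as did the length of the list measured to. Among regions ranked better than 25% at day 0, 55.4% of members (42.5 to 67.7), 61.0% of regions of all 3 lists and 47.1% of mirror regions (35.1 to 59.4) were near gene ends. At ranks of 25% to 50% the shares were 19.8%, 17.9% and 6.79%, at 50% to 75% they were 11.5%, 13.0% and 7.23%, and from 75% on 14.4%, 13.3% and 7.84%. In each of these 4 rank classes the share for regions of all 3 lists lay inside the members' interval, unlike the overall shares. Of all members, 56.5% (54.0 to 59.0) lay inside a protein-coding gene.

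The promoter windows of RefSeq, 250 bases before to 50 after a start, held a summit of 87 members, in 96 windows of 91 genes. Their median GC content was 60.3% with 13 CpG, against 63% and 23 CpG in 9733 windows with a summit of all 3 lists and 53% and 7 CpG over all 31396 windows. The windows of members up to 1 kb from an immobilized summit had a median of 64% and 21 CpG, and those of the other members 56.7% and 9 CpG. The SP/KLF letters GGGCGG, on either strand, were in 48 of 96 member windows (95% interval 39.6% to 60.4%), 72.4% of windows of all 3 lists and 36.0% of all windows. The ETS letters CCGGAAG were in 3 of 96 member windows (3.13%, 0.649 to 8.86), against 20.2% in windows of all 3 lists and 9.004% in all. The E-box letters CAGCTG were in 27.1% (18.5 to 37.1), 15.5% and 16.3%. The AP-1 letters TGANTCA were in 3.13%, 4.88% and 7.84%, and the TEAD letters CATTCC in 13.5%, 11.1% and 14.6%. These were chosen from 18 motifs searched, and the search held further promoter motifs. In the same order, the NFY letters CCAAT were in 30.2%, 40.5% and 37.3%. The CRE letters TGACGTCA were in 0%, 3.88% and 1.83%, and the NRF1 letters GCGCATGCG in 3.13%, 3.96% and 1.74%. The GR letters AGAACA were in 19.8% (12.4 to 29.2), 10.1% and 18.95%, and the GATA letters AGATAA in 10.4% (5.11 to 18.3), 4.29% and 11.2%. The GR and GATA intervals, like that of the E-box, lay above the share in windows of all 3 lists. Unlike it, they included the share of all windows. A match is a run of letters and no evidence of binding, and distal members could not be searched.

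With the nearest gene end within 50 kb as the rule, 1085 members were assigned to 1013 genes, 947 of which had 1 member and 62 had 2. The other 431 members had no gene end in that range, although 219 of them lay inside a gene. They were more often far from an immobilized summit, with 51.0% over 5 kb against 31.9% of the assigned members. Of regions with a gene, 1.82% were members, and of those found at day 0 and in non-immobilized cells 3.86% were. Members within 50 kb of another member numbered 213 (14.1%, 12.3 to 15.9), so most stood alone.

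Col6a3, which encodes a chain of the microfibrillar collagen VI of muscle and tendon matrix, had the most members, 5 of its 20 regions. No region of Col6a3 was found at day 0 and in immobilized cells without the non-immobilized list, and 10 were in all 3 lists. The member 26.8 kb upstream of the start scored 15.6 at day 0 and 7.35 in non-immobilized cells, and the nearest immobilized summit was 26116 bp away (chr1:90870527-90871040). The member 6.07 kb upstream scored 14.8 and 8.53, and its nearest immobilized summit, 6010 bp away, was the one at the Col6a3 start (chr1:90849785-90850290). A pair of members beyond the gene's other end scored 9.49 and 3.97, and 6.88 and 6.83, and the last scored 8.15 and 6.78 at 817 bp from an immobilized summit. The immobilized list had no upstream summit assigned to Col6a3, but it held 1 at the start, at a rank of 31.2%. At equal list length Col6a3 had 7 members and 0 mirror regions, but with windows of 500 bp it had 3, as many as Hunk, and over 5 kb from an immobilized summit it had 2 against 3 at Hunk. None of the 5 members lay inside the gene, and none ranked better than 50% in both lists.

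**Figure D4:**
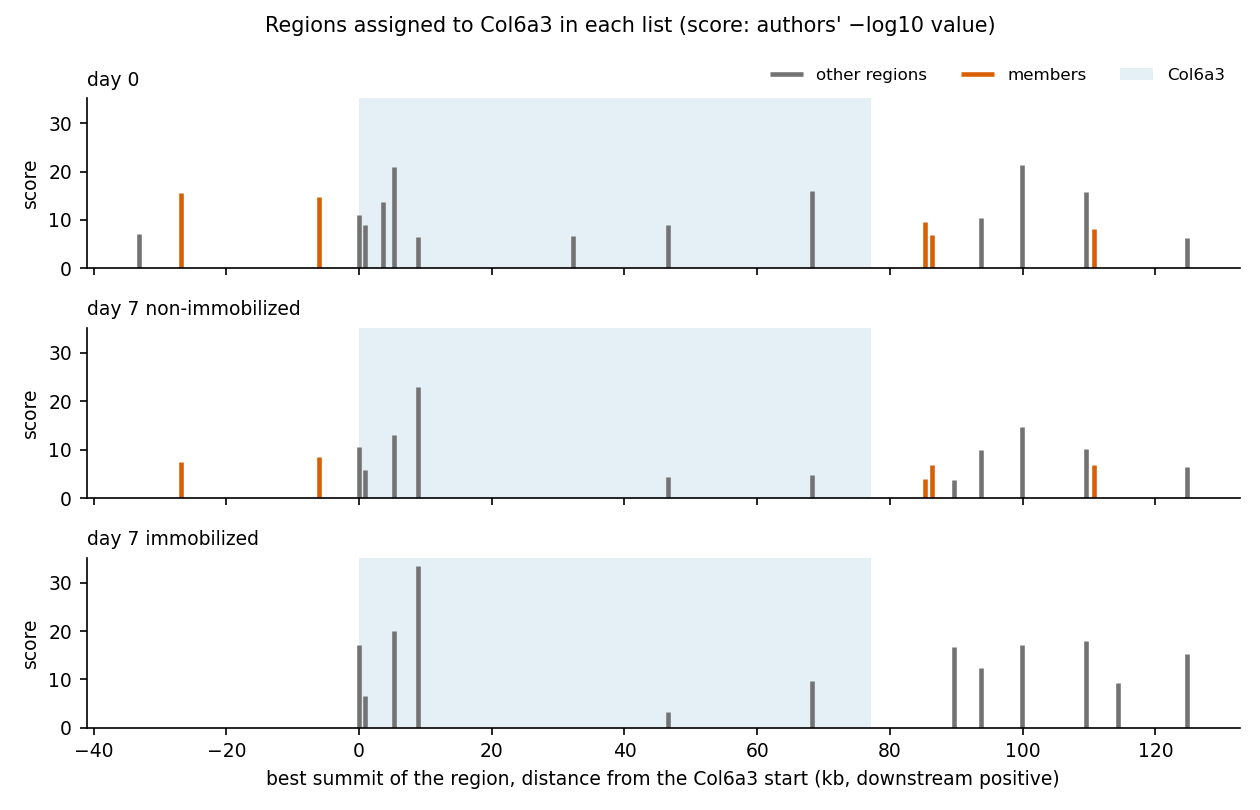
Score (y axis, authors' −log10 value) of the 20 regions assigned to Col6a3 in each list, placed at the best summit's distance from the gene's start (x axis, kb), with members in orange, other regions in grey and the gene shaded. The 2 members upstream of the gene have scores of 15.6 and 14.8 at day 0 and no counterpart in the immobilized list.

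Further genes had 2 or 3 members, at distances from immobilized summits that differed between genes. At Nrp1, a receptor of semaphorins and VEGF, a pair of members on either side of a gene end scored 9.40 and 6.75, and 15.7 and 19.1, with immobilized summits 628 and 686 bp away. At Tgif1, a repressor of TGF-beta signalling, the members scored 20.9 and 19.1 at 562 bp, and 5.56 and 4.49 at 1355 bp. At Ier5, an immediate early gene, 3 members scored 17.8 and 9.40, 6.73 and 3.43, and 5.002 and 3.13, and 2 of them had an immobilized summit within 1 kb. At Pitpnc1, a lipid transfer protein gene, a member near a gene end scored 23.3 and 20.9 at 640 bp, and another scored 22.1 and 5.56 at 12619 bp. A530032D15Rik also had 3 members, but its locus holds near-identical gene copies, so that count is uncertain.

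The gene lists were chosen for this tissue with earlier results of these data known. They hold 490 autosomal genes in 23 lists, and 72 of these genes had a member. Regions at list genes were members in 90 of 3225 cases (2.79%), against 1.82% of all regions with a gene, and 18 of the 23 lists were above that background. Some lists share genes, such as Des and Tcf7, so the lists are not independent. The mirror regions were 8.87% of list regions against a background of 8.03%. At equal list length, 6.69% of list regions were members against 4.78% of all regions with a gene, while mirror regions made up 4.57% and 4.98%. The lists are small, and the housekeeping list, with 4 members in 65 regions (6.15%), stood as high as any list of limb or mesenchymal genes except the limb position genes.

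The limb position genes, transcription factors that give limb mesenchyme its place, had 6 members in 95 regions (6.32%). They were at Tbx3 (2), Pitx1, Tbx15, Hand2 and Tbx5. The strongest at day 0 was 14764 bp from Pitx1, the hindlimb factor, with scores of 11.1 at day 0 and 4.44 in non-immobilized cells and an immobilized summit 19350 bp away. At Hand2 the member scored 5.20 and 6.13, 8066 bp from an immobilized summit. At Tbx3, one member scored 6.76 and 3.84 and lay 997 bp from an immobilized summit. At equal list length these genes had 13 members and 3 mirror regions.

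The mesenchymal progenitor genes had 8 members in 170 regions (4.71%), at Prrx1 (2), Gli1, Col15a1, Twist2, Meox2, Pdgfra and Mcam. The strongest was inside Gli1, the effector of hedgehog signalling that marks perivascular progenitors, with scores of 39.6 and 29.7, but an immobilized summit scoring 37.2 stood 681 bp away. At Prrx1, a limb mesenchyme factor, the members scored 2.97 and 6.04, 20803 bp from an immobilized summit, and 9.37 and 3.94, 1201 bp from one. At Pdgfra, a receptor of mesenchymal progenitors, the member scored 6.65 and 7.26 at 2283 bp. Of the 8 members, 4 were over 1 kb and 1 over 5 kb from an immobilized summit.

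Matrix genes had 10 members in 281 regions (3.56%), at Col6a3 (5), Col1a2 (2), Timp3 (2) and Eln, and 8 of them were over 1 kb from an immobilized summit. At Col1a2, a chain of collagen I, the member 3171 bp from a gene end scored 11.6 and 7.91, and the nearest immobilized summit was 37172 bp away. The other Col1a2 member, 48543 bp from a gene end, scored 6.06 and 3.48 and lay 675 bp from an immobilized summit. At Timp3, an inhibitor of metalloproteinases, the members scored 5.90 and 8.81, and 4.57 and 5.88. At Eln, elastin, the member scored 4.30 and 4.20. At equal length the matrix genes had 21 members and 15 mirror regions, and without Col6a3 the deposited list had 5 members left.

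Over the 23 lists the median share was 2.83%, and the lists of the tension pathway lay on either side of it. The YAP/TAZ and TEAD genes had 7 members in 177 regions (3.95%), at Amotl1 (2), Tead1 (2), Vgll4, Yap1 and Sav1. At Yap1 itself the member scored 12.7 at day 0 and 3.56 in non-immobilized cells, and an immobilized summit scoring 3.44 lay 1276 bp away. At Vgll4, a TEAD-binding competitor of YAP, the member scored 19.2 and 9.82 at 2814 bp, and at Amotl1, an angiomotin that binds YAP, the stronger member scored 39.5 and 14.7 at 646 bp. Focal adhesion and actin genes had 8 members in 301 regions (2.66%), at Ddr1 (2), Pxn (2), Actn4, Actn1, Itga11 and Vcl. At Pxn, paxillin, the members scored 6.69 and 3.93, and 6.46 and 12.9.

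**Figure D5:**
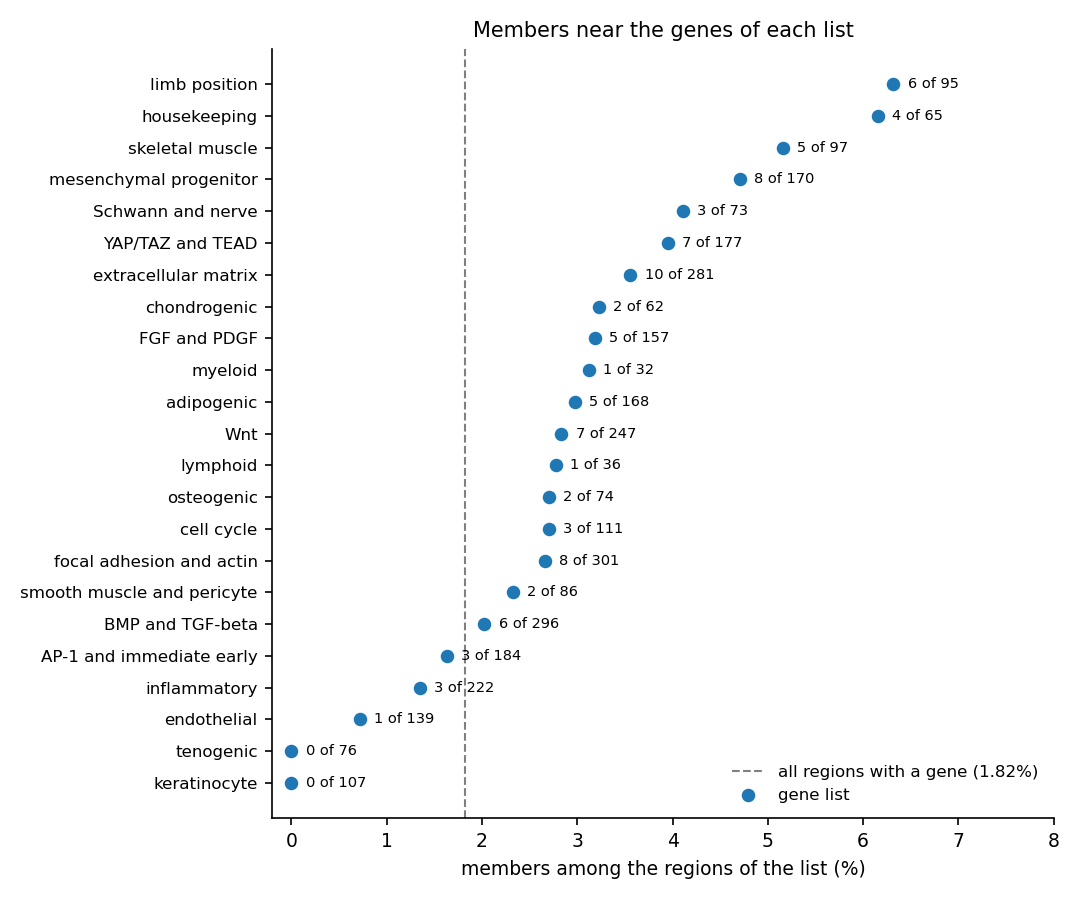
Members as a share of the regions assigned to the genes of each list (x axis, %), with the counts beside each point and the share among all regions with a gene (1.82%) as a dashed line. The points run from 0 of 107 regions for keratinocyte genes to 6 of 95 for limb position genes, and each rests on 10 members or fewer.

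The lists of lineage genes were small, and their shares lay on both sides of the background of 1.82%. The osteogenic list had 2 in 74 regions (2.70%), at Bglap2, an osteocalcin gene with near-identical neighbours, and Sost, the Wnt inhibitor of osteocytes; the Sost member scored 3.996 and 10.5 and lay 11155 bp from an immobilized summit. The chondrogenic list had 2 in 62 (3.23%), at Pth1r, the parathyroid hormone receptor, with scores of 13.2 and 15.8, and at Sox9, the cartilage regulator, with scores of 6.19 and 6.10 and an immobilized summit of 49.6 at 874 bp. The adipogenic list had 5 in 168 (2.98%), at Zfp423 (2), Ebf3, Cebpb and Ebf1, and the tenogenic list had 0 in 76. No member was assigned to Runx2, Pparg, Ebf2 or Scx. These genes had 6, 5, 16 and 4 regions, too few to set the absence of members apart from the background of 1.82%. With windows of 100 bp on each side, Runx2 had 1 member and the tenogenic list 3.

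Among signalling genes, the Wnt list had 7 members in 247 regions (2.83%), the FGF and PDGF list 5 in 157 (3.18%) and the BMP and TGF-beta list 6 in 296 (2.03%). At Fgf18, a growth factor of bone and cartilage, a member scored 20.8 and 21.8, with an immobilized summit of 28.3 at 657 bp. At Tcf7l1, a repressor of Wnt targets, both members were over 5 kb from immobilized summits and scored 6.49 and 7.30, and 7.82 and 6.13. At Id2, a BMP target, the member scored 13.4 and 7.06, and at Bmp6 it scored 5.84 and 7.30 at 21202 bp. AP-1 and immediate early genes had 3 in 184 (1.63%) and inflammatory genes 3 in 222 (1.35%), counts too small to set apart from the background of 1.82%. Of their regions called at day 0 and in non-immobilized cells, 3.49% and 2.91% were members, against 3.86% of all such regions with a gene.

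Member shares over all regions differed between the markers of other cells. Skeletal muscle genes had 5 members in 97 regions (5.15%), at Myh3 (2), Des, Chrna1 and Myog. Mirror regions were raised as well, with 14 of the 97 (14.4%) against a background of 8.03%. At equal list length these genes had 8 members and 8 mirror regions. At Myog, the factor of muscle differentiation, the member 273 bp from a gene end scored 3.95 and 3.34, and the nearest immobilized summit was 9058 bp away; at Des, desmin of the muscle cytoskeleton, the member scored 16.2 and 11.3 at 1824 bp. Endothelial genes had 1 member in 139 regions (0.719%), at Fli1, and keratinocyte genes 0 in 107. Only 28 and 14 of these regions were called at day 0 and in non-immobilized cells, as a member must be. Of those, 3.57% and 0% were members, against 3.86% of all such regions with a gene, so few regions could be members here. Schwann and nerve genes had 3 in 73, smooth muscle and pericyte genes 2 in 86, lymphoid genes 1 in 36 and myeloid genes 1 in 32. The counts of muscle genes with a region near an end, given above, include the members at Myh3 and Myog, and the part of other cells in the set was not tested.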

How the data were processed

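Deposited ATAC-seq summit lists of 3 mouse mesenchymal stem cell libraries, 1 per group, were analysed, with groups taken from the labels; the Omni-ATAC protocol was used, per the labels. The build was mm10 and the tools included the aligner Bowtie2 2.3.4.1 and the peak caller MACS2 2.1.2, per the submitters' processing notes. Their parameters, any read shift or filter and the peak cutoff were not given in the sources used here. Each deposited list holds 1 bp summits with the authors' score, taken from the MACS2 format to be a −log10 value, of a p-value or a q-value (not stated). Peaks were called per library, as the deposited lists show. The deposited run statistics give reads as counts, duplicates as a fraction and alignment (89.9% to 92.5%) as a percent, per the file headers.

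Windows of 250 bp on each side were merged where they overlapped by at least 1 base. Ranks are percent positions by score within a list. A region's gene was the protein-coding one whose end was nearest to its best-ranked summit, up to 50 kb, from a RefSeq table of GRCm38.p6 with ends but no strand or exons, so no exon, intron or UTR is given. RefSeq start windows covered 16456 of 20661 protein-coding genes. Positions count from 1.

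The members and gene lists were chosen with earlier results of these data known. Named genes were the 20 with the most members, the 15 best-ranked members, up to 4 per list and a fixed set; those beyond this (Ctsk, Zfp660, Pdcd7, the best far members, and the lists' remaining genes) were named after their values were seen. No comparison was tested, since each group has 1 library. Region building, gene assignment and distance classes were tested on simulated data, where the pattern of 5000 of 5000 regions was recovered. The simulated sites stood apart and had no summits close to the 500 bp limit, so crowded loci and that limit were not covered. Alternatives were other widths, equal list lengths, stricter scores, closer summits, farther immobilized summits and other gene distances. The tools were pandas 2.3.3, numpy 2.4.6, scipy 1.17.1 and matplotlib 3.10.9 under Python 3.11.15.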

Additional observations from a re-analysis of the deposited data

How the results depend on the processing

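No paired analysis was possible because each group has 1 library and the labels carry no replicate numbers, and no library could be left out. The set depends on the settings by construction, since each narrows or widens the rule. With windows of 100 bp on each side there were 2487 members, 7.59% of the regions of day 0 and non-immobilized cells, 22.4% near a gene end, with median ranks of 59.2% and 68.8% and a median distance to an immobilized summit of 636 bp. With 500 bp, the number (1015) stayed within 1.5 times; the share was 3.08%, 6.90% were near a gene end, ranks were 68.2% and 81.1%, the distance 6446 bp, and list genes had 59 members. At equal list length there were 3447 members (10.3%), 12.5% near a gene end, with a day 0 rank of 69.3%, a distance of 5977 bp and 186 members at list genes. In the best 50% of both lists there were 172 members (0.909%), 43.0% near a gene end and 63.4% inside a gene, with ranks of 28.9% and 30.04%, a distance of 703 bp, 10 at list genes and 0 at the fixed genes. With summits within 100 bp of each other, the share was 4.08%, 18.3% were near a gene end, and ranks were 62.5% and 73.2%. Without members that had an immobilized summit within 1 kb, the share was 2.97%, 7.66% were near a gene end, ranks were 68.2% and 80.6% and the distance was 6123.5 bp. Without those within 5 kb, 566 were left (1.65%), 6.89% near a gene end and 53.7% inside a gene, with ranks of 68.2% and 82.5%, a distance of 13398 bp, 28 at list genes and 1 at the fixed genes. Counting 500 bp or 2 kb as near a gene end gave 7.39% and 22.4%. Assigning genes within 10 kb left 46 members at list genes and 3 at the fixed genes.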
